A study of Homo sapiens with 16 samples.

Results

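The chromosome 19 zinc finger windows are 4 stretches of the human hg19 build in which KRAB zinc finger genes lie side by side: chr19:19800000-24500000 (window 1), chr19:36800000-38400000 (window 2), chr19:44300000-45000000 (window 3) and chr19:52400000-58950000 (window 4). ATAC-seq peaks of all 16 libraries that fell in these stretches were merged wherever they shared 1 base. This gave 354 window regions of 131357 regions on chromosomes 1 to 22 and X. The rest of chromosome 19 held 1957 regions and the other 22 chromosomes held 129046. The rule uses position alone, and the stretches were proposed with earlier results of these data known.

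KRAB zinc finger proteins bind DNA through arrays of zinc fingers and recruit the corepressor TRIM28 through their KRAB domain, and many of them silence transposable elements by histone H3 lysine 9 methylation. The genes arose by tandem duplication, so neighbouring copies resemble each other, and their promoters stand as open sites within chromatin that often carries the repressive mark over the gene bodies. Of 518 protein-coding symbols that begin with ZNF in the RefSeq table of GRCh38.p14, 250 (48.3%) are placed on chromosome 19. Window 4 also holds leukocyte and killer-cell receptor genes, which belong to other families. That table and the peak lists are on different builds, so no region was tied to a gene and no sequence is shown.

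ATAC-seq maps open chromatin with the Tn5 transposase. The libraries came from MOLT4 and DND41 cells, long-established human lines of T-cell acute lymphoblastic leukaemia, after ACBI-1 at 100 nM or DMSO for 24 h or 3 h. ACBI-1 is a degrader that recruits the VHL ubiquitin ligase to SMARCA2, SMARCA4 and PBRM1, subunits of the SWI/SNF remodellers that slide and evict nucleosomes. Each of the 8 groups had 2 libraries: MOLT4 ACBI-1 24 h, MOLT4 DMSO 24 h, MOLT4 ACBI-1 3 h, MOLT4 DMSO 3 h and the same 4 groups in DND41.

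Groups follow the sample titles, because in 8 of the 16 samples the field for the cell line names the other line. Whether paired libraries are separate cultures is not stated, and if they are not, the p-values reflect a spread that may be technical. The lists held 26145 to 33870 peaks in the 8 ACBI-1 libraries and 39117 to 46712 in the 8 DMSO libraries. Read depth is unknown, so a site without a peak may only have lost its call. A tag in the peak names differs between the 24 h and the 3 h lists, so time, preparation and any setting behind that tag cannot be told apart.

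Window regions were found in every library more often than regions elsewhere. A peak in all 16 libraries was found at 168 of the 354 window regions (47.5%), at 542 of the 1957 in the rest of chromosome 19 (27.7%) and at 11327 of the 129046 on other chromosomes (8.78%). Regions seen in 1 library only made up 63 (17.8%), 575 (29.4%) and 66329 (51.4%) of the same 3 classes. Window regions in all 16 libraries spanned a median of 886 bp, and those in 1 library 210 bp.

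The windows differed in how densely they were filled. Window 1 held 73 regions in 4.7 Mb, window 2 held 33 in 1.6 Mb, window 3 held 20 in 0.7 Mb and window 4 held 228 in 6.55 Mb. Regions present in all 16 libraries numbered 36 in window 1 (7.66 per Mb), 25 in window 2 (15.6 per Mb), 6 in window 3 (8.57 per Mb) and 101 in window 4 (15.4 per Mb). Window 2 had the highest share of such regions, 75.8%, and window 3 the lowest, 30%. The median distance between neighbouring regions of this kind was 66.5 kb in window 1, 60.3 kb in window 2, 67.7 kb in window 3 and 30.8 kb in window 4.

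**Figure D1:**
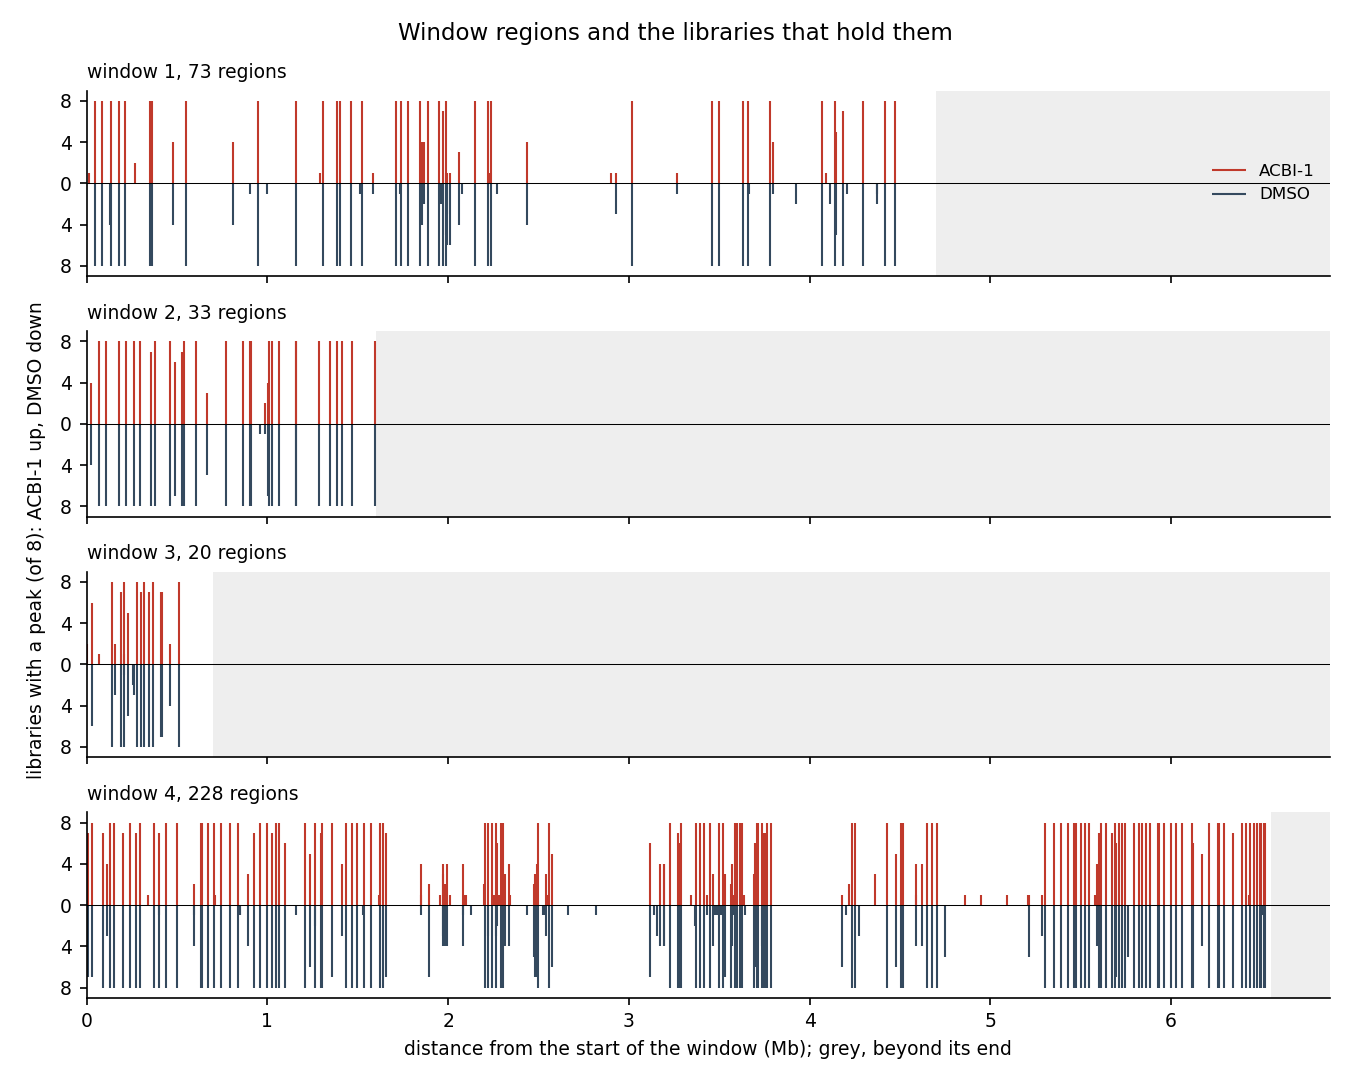
Each line is a window region, placed by its distance in Mb from the start of its window; its height upward is the number of ACBI-1 libraries with a peak (of 8) and downward the number of DMSO libraries (of 8). Most tall lines reach 8 on both sides, and 168 of the 354 regions do so.

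Among regions with a peak in every library, ranked by median DMSO width, the broadest was chr19:54693213-54695187 in window 4. Its median width over libraries was 1781 bp with ACBI-1 and 1935 bp with DMSO. It was 1902 and 1919 bp in MOLT4 ACBI-1 24 h, against 1940 and 1973 bp in MOLT4 DMSO 24 h, and 1616 and 1728 bp in DND41 ACBI-1 3 h, against 1930 and 1601 bp in DND41 DMSO 3 h. The ACBI-1 and DMSO widths overlapped in DND41 at 3 h and not in MOLT4 at 24 h. The next broadest by DMSO width were chr19:56110262-56112056, chr19:56165068-56167052 and chr19:55918607-55919812, with medians of 1634, 1675 and 932 bp with ACBI-1 and 1708, 1706 and 1089 bp with DMSO. At the first of these, chr19:56110262-56112056, both DND41 ACBI-1 3 h libraries were narrow, at 832 and 994 bp, and so was 1 of the DND41 DMSO 3 h libraries, at 820 bp, while the other DMSO library had 1732 bp.

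The first comparison asks how many window peaks were called with ACBI-1 and with DMSO. In MOLT4 the ACBI-1 libraries held 264 and 251 window peaks at 24 h, against 254 and 259 in DMSO, and 234 and 231 at 3 h, against 244 and 248 in DMSO. In DND41 they held 229 and 231 at 24 h, against 261 and 255 in DMSO, and 196 and 215 at 3 h, against 249 and 229 in DMSO. The groups overlapped in MOLT4 at 24 h and did not overlap in the other 3 settings.

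Over lines and times, window peak number fell by 7.66% with ACBI-1, a log2 difference of -0.11 (SE 0.025; two-sided exact permutation p = 0.00617, adjusted 0.0350), lower in 14 of 16 pairings of 1 ACBI-1 and 1 DMSO library within a line and time. The rest of chromosome 19 fell by 16.9% (exact permutation p = 0.00154, adjusted 0.0105) and the other chromosomes fell by 28.3% (exact permutation p = 0.00154, adjusted 0.0105). The windows took a larger share of the lists: 0.755% of all peaks with ACBI-1 and 0.590% with DMSO, a difference of 0.166 points (SE 0.018; exact permutation p = 0.00154, higher in 16 of 16 pairings). The rest of chromosome 19 also took a larger mean share, 2.85% with ACBI-1 and 2.46% with DMSO. Within chromosome 19 the windows' share was 21.2% with ACBI-1 and 19.5% with DMSO, a difference of 1.72 points (SE 0.198; exact permutation p = 0.00154). The window values depend on list length: with each list held to its 26145 widest peaks, the window peak number was higher with ACBI-1 by 0.035 on the log2 scale (exact permutation p = 0.148), and the windows' 2 shares differed by 0.021 and 0.250 points (exact permutation p = 0.148 and 0.327).

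**Figure D2:**
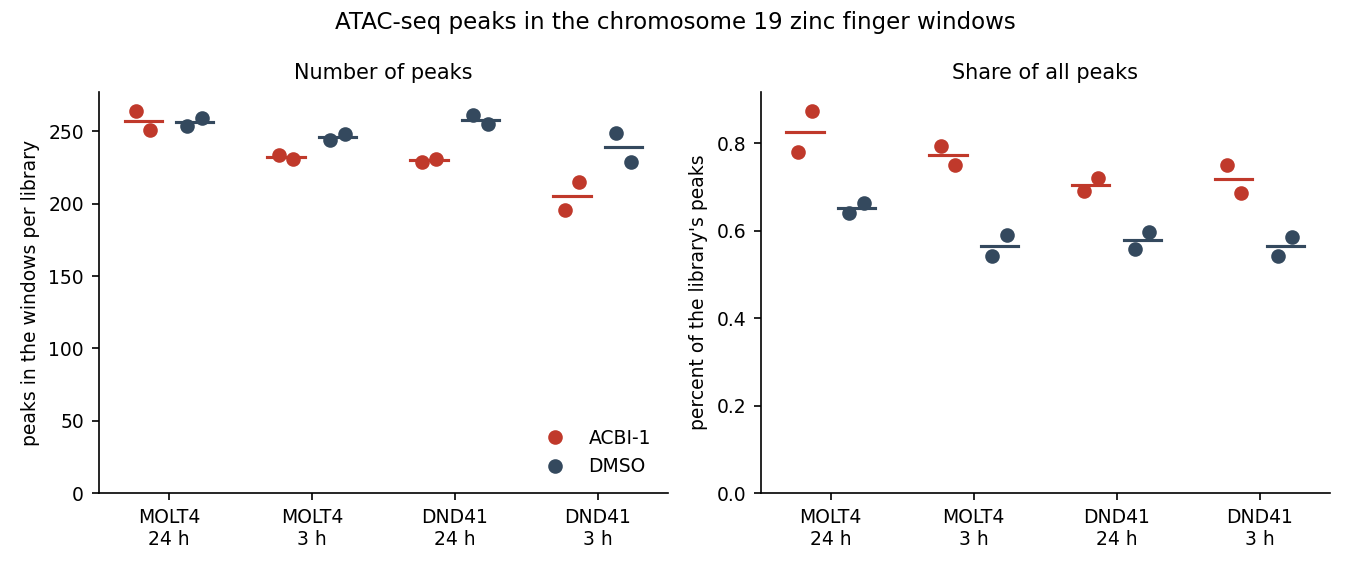
Left, number of peaks in the windows per library; right, windows' share of all peaks of the library in percent; points are libraries, bars are means of 2, ACBI-1 left of DMSO in each line and time. All 4 ACBI-1 libraries of DND41 lie below the DMSO libraries of the same time in number, and in every line and time both ACBI-1 libraries lie above both DMSO libraries in share.

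All 4 windows had fewer peaks on average with ACBI-1. Peak number differed by -8.60% in window 1 (exact permutation p = 0.00926, adjusted 0.0450), -4.52% in window 2 (exact permutation p = 0.0556, adjusted 0.0609), -11.1% in window 3 (exact permutation p = 0.111, adjusted 0.118) and -7.70% in window 4 (exact permutation p = 0.0123, adjusted 0.0525). After adjustment only window 1 passed. Window 1 averaged 43.9 ± 2.30 peaks with ACBI-1 and 48 ± 2.51 with DMSO, and window 4 averaged 145 ± 16.3 with ACBI-1 and 157 ± 9.36 with DMSO (SD, n = 8 each).

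The main comparison is retention. Reference sites for a library were the regions called in both DMSO libraries of the same line at the alternate time. No library thus helped to pick the sites used to score it. There were 217 to 241 reference sites in the windows, and retention is the percent of them with a peak. In MOLT4 it was 95.6% and 94.7% with ACBI-1 at 24 h, against 98.2% in both DMSO libraries, and 93.6% and 93.2% at 3 h, against 95.7% and 97.0% in DMSO. In DND41 it was 95.9% and 96.3% with ACBI-1 at 24 h, against 99.1% in both DMSO libraries. DND41 at 3 h was the lowest setting, at 78.4% and 85.9% with ACBI-1 against 97.1% and 89.2% in DMSO. ACBI-1 and DMSO libraries did not overlap in any line and time.

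Averaged over the strata, window retention was 91.7 ± 6.31% with ACBI-1 and 96.7 ± 3.24% with DMSO (SD, n = 8 each), a difference of -5.01 points (SE 1.37; exact permutation p = 0.000772, the smallest possible here, adjusted 0.00332; lower in 16 of 16 pairings). Retention was 81.1% with ACBI-1 and 92.0% with DMSO in the rest of chromosome 19, a difference of -11.0 points (SE 1.16), and 66.4% with ACBI-1 and 87.8% with DMSO on other chromosomes, a difference of -21.4 points (SE 1.66). With equal list lengths the window difference was -0.427 points (exact permutation p = 0.629).

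Counted in percentage points, the drop in the windows was smaller than in both other classes. It was 5.97 points less than in the rest of chromosome 19 (SE 0.526; exact permutation p = 0.000772, adjusted 0.00332; 15 of 16 pairings) and 16.4 points less than on other chromosomes (SE 0.716; exact permutation p = 0.000772, adjusted 0.00332; 16 of 16 pairings). Window sites were also the ones most often found again in DMSO, so the contrast was repeated on the log-odds scale. There ACBI-1 and DMSO differed by -1.03 in the windows (SE 0.187), by -1.17 in the rest of chromosome 19 (SE 0.0975) and by -1.34 on other chromosomes (SE 0.132). The contrast was 0.136 between the windows and the rest of chromosome 19 (SE 0.102; exact permutation p = 0.654) and 0.311 between the windows and the other chromosomes (SE 0.0802; exact permutation p = 0.152), so neither passed. The result in points is a statement about the percent of sites that kept a peak, not about the odds.

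Window sites were broader than the others, and broad peaks keep their call more often. Median DMSO width at reference sites was 480 to 675 bp in the windows, 434 to 597 bp in the rest of chromosome 19 and 375 to 533 bp on other chromosomes, by line and time. Retention of the comparison classes was therefore also reweighted to the width distribution of the window sites over 20 width bins. At matched width the rest of chromosome 19 had a retention of 87.7 ± 2.76% with ACBI-1 and 95.5 ± 2.51% with DMSO, and other chromosomes 78.2 ± 8.51% with ACBI-1 and 94.3 ± 2.62% with DMSO (SD, n = 8 each).

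At matched width the drop with ACBI-1 was still smaller in the windows than on other chromosomes, by 11.1 points (SE 0.754; exact permutation p = 0.000772, adjusted 0.00332; 14 of 16 pairings). On the log-odds scale that difference was 0.510 (SE 0.0731; exact permutation p = 0.0340, adjusted 0.0926 over the tests on that scale). Against the rest of chromosome 19 the drop at matched width was smaller by 2.77 points (SE 0.572; exact permutation p = 0.0162, adjusted 0.0502; 13 of 16 pairings), which did not pass the adjustment, and on the log-odds scale it was 0.119 (exact permutation p = 0.688). It was 2.25 points without replicate 2 of DND41 DMSO 3 h (exact permutation p = 0.0988) and 2.46 points without replicate 2 of DND41 ACBI-1 3 h (exact permutation p = 0.0864).

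**Figure D3:**
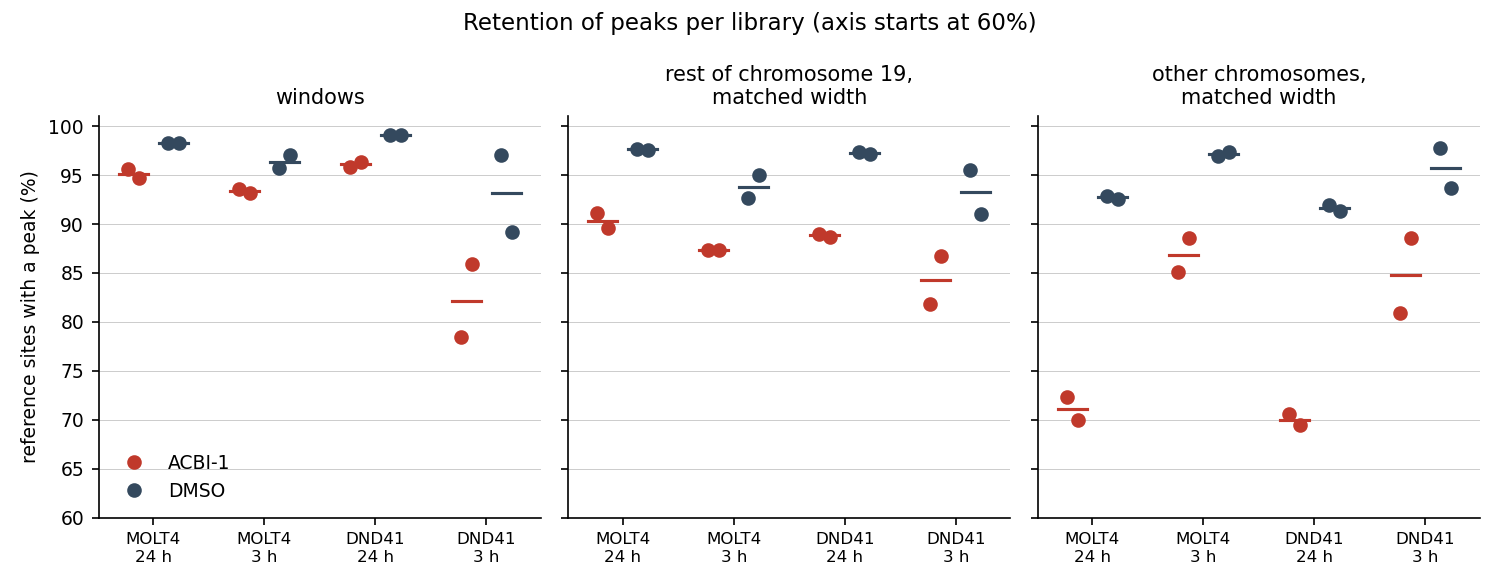
Retention per library in percent of reference sites with a peak, for the windows and for the 2 comparison classes reweighted to the windows' width distribution; points are libraries, bars are means of 2, ACBI-1 left of DMSO, and the axis starts at 60%. At 24 h the ACBI-1 libraries lie between 94.7% and 96.3% in the windows and between 69.4% and 72.3% on other chromosomes, while both ACBI-1 libraries of DND41 at 3 h lie lower in the windows than in either class.

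Retention followed DMSO peak width within the windows. Tertiles of DMSO width, cut over all reference sites of a line and time, split the sites into narrow, middle and broad ones. In the narrow tertile it was 60.1% with ACBI-1 and 77.7% with DMSO, a difference of -17.7 points (SE 4.67; exact permutation p = 0.000772, adjusted 0.00332). In the middle tertile it was 91.9% with ACBI-1 and 98.1% with DMSO, a difference of -6.20 points (SE 1.48; exact permutation p = 0.000772, adjusted 0.00332). In the broad tertile it was 98.5% with ACBI-1 and 99.5% with DMSO, a difference of -0.967 points (SE 0.775; exact permutation p = 0.0556). This small value moved with single libraries, to -0.231 points without replicate 1 of DND41 ACBI-1 3 h (exact permutation p = 0.253), -1.70 without replicate 2 of that group (exact permutation p = 0.00154), -2.09 without replicate 2 of DND41 DMSO 24 h (exact permutation p = 0.00309) and -0.982 without replicate 1 of MOLT4 DMSO 24 h (exact permutation p = 0.0216). With equal list lengths the narrow and middle differences were -1.77 and -0.0141 points (exact permutation p = 0.522 and 0.959). Only 8.71% to 14.3% of window sites were in the narrow tertile, against 19.8% to 25.0% in the rest of chromosome 19 and 33.7% to 33.9% on other chromosomes.

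Against other chromosomes the windows lost 15.9 points less in the narrow tertile (SE 2.60; exact permutation p = 0.0100, adjusted 0.0351), 19.9 points less in the middle tertile (SE 1.10; exact permutation p = 0.000772, adjusted 0.00332) and 3.23 points less in the broad tertile (SE 0.510; exact permutation p = 0.00154, adjusted 0.00576). The narrow value rests in part on 1 library, being 5.52 points without replicate 2 of DND41 DMSO 3 h (exact permutation p = 0.326). On the log-odds scale the middle value was 0.266 (exact permutation p = 0.514). Against the rest of chromosome 19 the differences were 9.74 points in the narrow tertile (exact permutation p = 0.0239, adjusted 0.0502), 4.72 points in the middle tertile (exact permutation p = 0.00154, adjusted 0.00576) and 0.464 points in the broad tertile (exact permutation p = 0.242). The narrow value was 2.52 points without that same library (exact permutation p = 0.535), and the middle value was 0.0634 on the log-odds scale (exact permutation p = 0.887) and 1.09 points with equal list lengths (exact permutation p = 0.0556). The broad value was 0.0143 to 1.02 points when 1 library was left out, and passed an unadjusted 0.05 without replicate 1 of DND41 ACBI-1 3 h (0.913 points, exact permutation p = 0.00154) or replicate 2 of MOLT4 DMSO 24 h (1.02 points, exact permutation p = 0.0386). By line and time, values against other chromosomes follow for MOLT4 24 h, MOLT4 3 h, DND41 24 h and DND41 3 h. The narrow tertile, with 21 to 31 window sites, had 15.2, 24.3, 24.1 and -0.0511 points. The middle tertile had 36.2, 11.7, 29.0 and 2.67 points, and the broad tertile 6.76, 1.14, 5.88 and -0.877 points. Against the rest of chromosome 19, DND41 at 3 h had -4.90, -2.36 and -1.14 points, and every other setting a positive value.

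The width bins show where the classes parted at 24 h. Site widths were those of the DMSO libraries of the alternate time. Window sites had medians of 546 bp (MOLT4) and 480 bp (DND41) when scored at 24 h, and 675 and 644 bp at 3 h. A bin therefore does not hold like sites at the 2 times, and its 24 h and 3 h values are not a like comparison. At sites of 250 to 350 bp, retention with ACBI-1 was 89.0 ± 4.01% in the windows, 74.0 ± 3.35% in the rest of chromosome 19 and 38.9 ± 4.03% on other chromosomes, against 98.6 ± 2.78%, 95.3 ± 0.984% and 80.8 ± 1.02% with DMSO (SD, n = 4 each). At 350 to 500 bp it was 98.5 ± 1.13%, 90.7 ± 0.905% and 59.8 ± 3.84% with ACBI-1 in the same order of classes. No window site of 500 bp or more was without a peak at 24 h in either arm. At 3 h the 350 to 500 bp sites had 74.3 ± 11.2% in the windows, 64.9 ± 2.95% in the rest of chromosome 19 and 66.7 ± 6.70% on other chromosomes with ACBI-1, and the windows' spread covered both other means. At 500 to 700 bp the 24 h values with ACBI-1 were 100%, 98.0% and 86.2% in the same order, and at 3 h they were 91.3%, 89.5% and 86.6%. At 250 to 350 bp at 3 h the windows had 34.4 ± 15.7% with ACBI-1, above the rest of chromosome 19 at 30.4% and below other chromosomes at 46.9%. The 2 narrowest bins held only 4 to 8 window sites per library at 3 h.

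**Figure D4:**
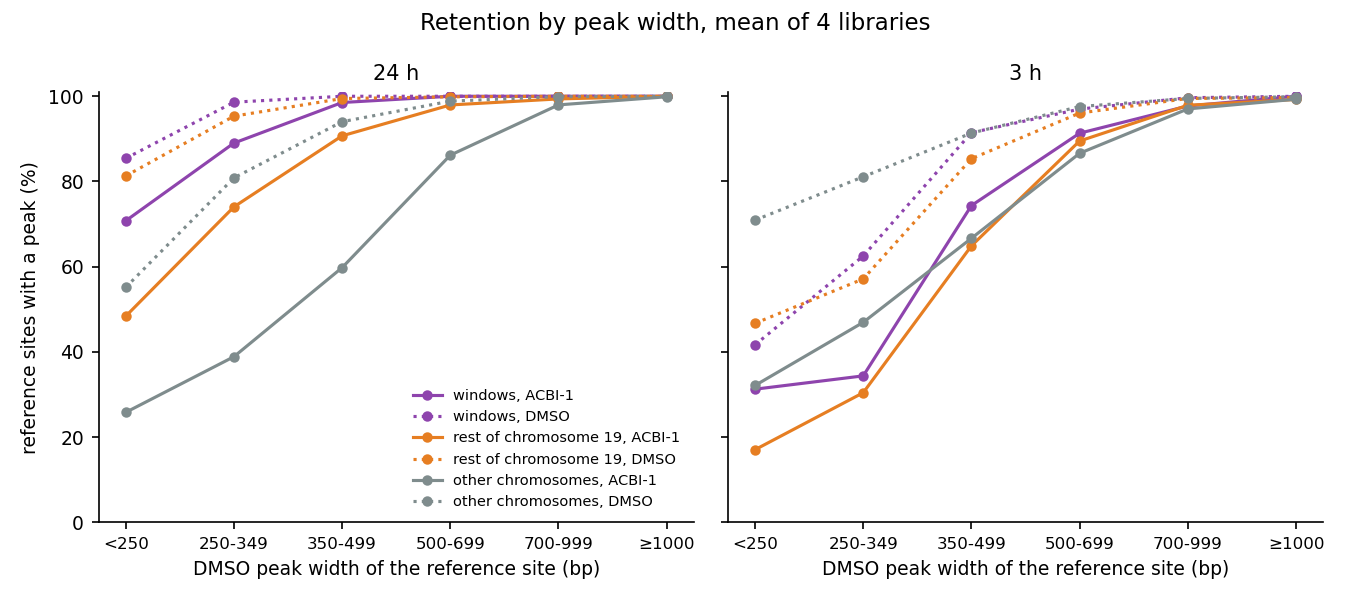
Mean retention of 4 libraries in percent against the DMSO peak width of the reference site in bp, at 24 h (left) and 3 h (right), for the windows, the rest of chromosome 19 and other chromosomes; solid lines are ACBI-1 and dotted lines DMSO. At 24 h the ACBI-1 lines of the 3 classes stand apart below 500 bp, at 98.5%, 90.7% and 59.8% for sites of 350 to 500 bp, and at 500 to 700 bp still at 100%, 98.0% and 86.2%. At 3 h the same 2 bins have 74.3%, 64.9% and 66.7%, then 91.3%, 89.5% and 86.6%. Widths are those of the DMSO libraries of the alternate time, so a bin does not hold like sites in the 2 panels.

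By time, the drop at matched width was smaller in the windows than on other chromosomes by 18.6 points at 24 h (SE 0.565; exact permutation p = 0.0556, the smallest that 1 time allows) and 3.67 points at 3 h (SE 1.40; exact permutation p = 0.222). Window retention at 24 h stood 25.0 points above that of other chromosomes with ACBI-1 and 6.48 points above with DMSO. The difference between times was 14.9 points (SE 1.51; exact permutation p = 0.153, adjusted 0.528), which did not pass. That test exchanged time labels within line and treatment. The gap in DMSO libraries also shifted with time, from -1.67 points at 3 h to 6.48 points at 24 h. Such a shift widens the exchanged values, so this p cannot decide whether the effect differed between times. On the log-odds scale the same contrast was 0.434 at 24 h (exact permutation p = 0.0556) and 0.586 at 3 h (exact permutation p = 0.111). Against the rest of chromosome 19 the matched difference was 4.80 points at 24 h (exact permutation p = 0.0556) and 0.736 points at 3 h (exact permutation p = 0.667).

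By line, the same contrast with other chromosomes was 12.9 points in MOLT4 (SE 1.07; exact permutation p = 0.0278, the smallest that 1 line allows, adjusted 0.0502). It was 9.32 points in DND41 (SE 1.06; exact permutation p = 0.0556, adjusted 0.0662), so neither line passed the adjustment. The lines differed by 3.59 points (SE 1.51; exact permutation p = 0.267, adjusted 0.528). The 4 line and time settings were not alike: the difference was 18.5 points in MOLT4 at 24 h, 7.35 points in MOLT4 at 3 h, 18.7 points in DND41 at 24 h and -0.0207 points in DND41 at 3 h. Within 1 line at 1 time the smallest possible p is 0.333, so these were not tested singly. On the log-odds scale the contrast with other chromosomes was 0.806 in MOLT4 (exact permutation p = 0.0556) and 0.214 in DND41 (exact permutation p = 0.639). Against the rest of chromosome 19 the matched difference was 3.84 points in MOLT4 (exact permutation p = 0.0278, adjusted 0.0502) and 1.69 points in DND41 (exact permutation p = 0.444).

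Libraries of 24 h and 3 h were scored at different sites, so the times were also compared at the same sites, those with a peak in all 4 DMSO libraries of a line. There were 221 in MOLT4 and 214 in DND41 within the windows. With ACBI-1 in MOLT4, 216 and 214 of them had a peak at 24 h and 212 and 212 at 3 h. In DND41, 207 and 208 had a peak at 24 h and 186 and 199 at 3 h. Both 24 h libraries were above both 3 h libraries in each line.

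As a percent, retention at these sites was 97.1 ± 0.456% at 24 h and 92.9 ± 4.25% at 3 h in the windows (SD, n = 4 each), a difference of 4.18 points (SE 1.54; exact permutation p = 0.0556, the smallest possible). On other chromosomes it was 69.7 ± 2.09% at 24 h and 81.4 ± 3.84% at 3 h, a difference of -11.6 points (SE 2.44; exact permutation p = 0.0556). The rest of chromosome 19 had 89.3 ± 0.858% at 24 h and 87.8 ± 1.81% at 3 h, a difference of 1.47 points (exact permutation p = 0.278). The time differences of the windows and of other chromosomes had opposite signs. The matched gap between the 2 classes was 18.5 ± 0.838 points at 24 h and 3.43 ± 3.27 points at 3 h, a difference of 15.1 points (SE 0.983; exact permutation p = 0.0556). All these sites have a peak in every DMSO library of their line by choice. The values thus compare ACBI-1 libraries alone and leave no DMSO gap to subtract. At the reference sites of the alternate time, the matched DMSO gap was itself -1.67 points at 3 h and 6.48 points at 24 h. The 15.1 points therefore do not measure a change of the treatment effect with time. The time difference cannot be told apart from that of the name tags.

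Few of these sites were without a peak in both ACBI-1 libraries of a time. In MOLT4 they were 2 of 221 window sites at 24 h (0.905%) and 6 at 3 h (2.71%), against 7.26% and 6.67% of the sites in the rest of chromosome 19 and 25.6% and 11.7% on other chromosomes. In DND41 they were 5 of 214 at 24 h (2.34%) and 9 at 3 h (4.21%), against 7.51% and 6.82% in the rest of chromosome 19 and 22.7% and 10.8% on other chromosomes. Of the 9 DND41 window sites without a peak at 3 h, 7 (77.8%) had one in both 24 h libraries, beside 28.6% of 49 sites in the rest of chromosome 19 and 9.92% of 2580 on other chromosomes. In MOLT4 it was 1 of 6 (16.7%), beside 26.3% of 57 and 7.98% of 3044. These shares rest on few window sites and were not tested.

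Within 1 line and time, 5 of 235 window regions found in both DMSO libraries had no peak in either ACBI-1 library in MOLT4 at 24 h (2.13%), beside 27.7% over all regions. The count was 10 of 227 in MOLT4 at 3 h (4.41%, beside 22.2%), 16 of 241 in DND41 at 24 h (6.64%, beside 27.1%) and 11 of 217 in DND41 at 3 h (5.07%, beside 20.9%). In the rest of chromosome 19 the share was 12.2%, 9.66%, 13.5% and 9.69% in the same order of settings. These shares were not matched for width. The reverse, a peak in both ACBI-1 libraries and in neither DMSO library, was seen at 4 of 231 window regions in MOLT4 at 24 h (1.73%, beside 4.57%), at 1 of 217 in MOLT4 at 3 h (0.461%, beside 1.48%) and at none in DND41 at 24 h (beside 5.30%) or 3 h (beside 1.15%).

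The windows were then set against whole chromosomes at matched width. In all 4 ACBI-1 libraries of 24 h, and in both MOLT4 ACBI-1 libraries of 3 h, window retention was above that of all 22 other chromosomes. At 24 h the mean with ACBI-1 was 95.6 ± 0.673% in the windows and 89.6 ± 1.09% in the rest of chromosome 19, followed by chromosome 22 at 83.4 ± 3.52% and chromosome 17 at 81.4 ± 0.800% (SD, n = 4 each). The lowest were chromosomes 18 and 13, at 65.7 ± 1.84% and 65.9 ± 1.60%. The DMSO libraries of 24 h had the windows first as well, at 98.7 ± 0.485%. In the DND41 ACBI-1 libraries of 3 h the windows were above only 6 and 2 of the 22 chromosomes.

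**Figure D5:**
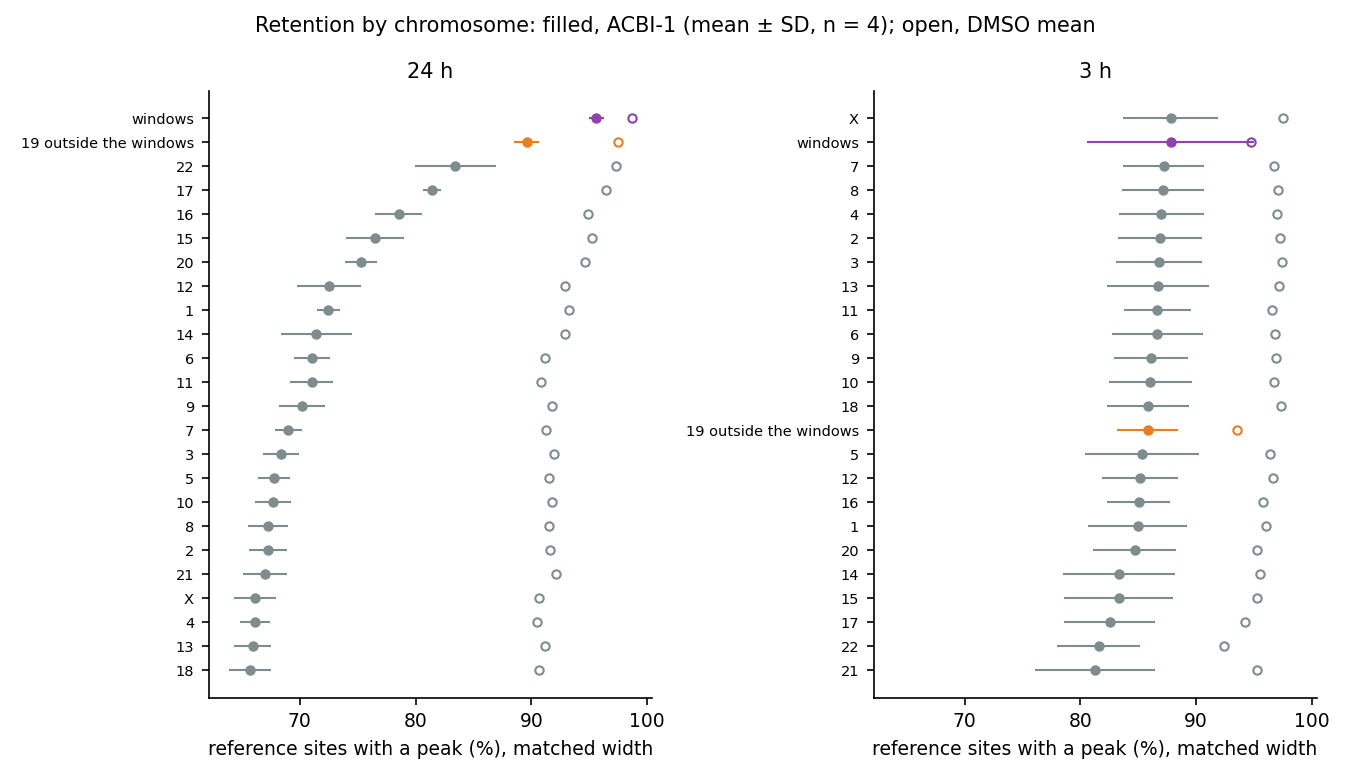
Retention in percent at the windows' width distribution, by chromosome, at 24 h (left) and 3 h (right), sorted by the ACBI-1 mean; filled points are ACBI-1 means with SD over 4 libraries and open points DMSO means. At 24 h the windows (purple) stand at 95.6% and the rest of chromosome 19 (orange) at 89.6%, above chromosome 22 at 83.4%. At 3 h the windows, at 87.8 ± 7.18%, lie next to the highest, chromosome X at 87.8 ± 4.10%, with a wider SD.

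Each window was compared with the rest of chromosome 19. Retention was 93.5 ± 4.33% with ACBI-1 and 96.9 ± 2.43% with DMSO in window 1, 96.7 ± 4.36% with ACBI-1 and 99.2 ± 1.54% with DMSO in window 2, 86.9 ± 18.1% with ACBI-1 and 92.8 ± 13.1% with DMSO in window 3, and 90.8 ± 7.09% with ACBI-1 and 96.7 ± 3.83% with DMSO in window 4 (SD, n = 8 each). The drop was smaller than in the rest of chromosome 19 by 7.63 points in window 1, 8.48 points in window 2 and 5.10 points in window 4 (exact permutation p = 0.000772 and adjusted p = 0.00332 for each). In window 3, the shortest, it was smaller by 5.07 points (SE 3.26; exact permutation p = 0.178). That value rests on single libraries. It was 1.74 points without replicate 1 of MOLT4 DMSO 24 h (exact permutation p = 0.633), 3.28 without replicate 2 of DND41 ACBI-1 3 h (exact permutation p = 0.619), 6.86 without replicate 1 of that group (exact permutation p = 0.0386) and 7.42 without replicate 1 of DND41 DMSO 3 h (exact permutation p = 0.00617). On the log-odds scale the difference from the rest of chromosome 19 was 0.565 in window 1 (exact permutation p = 0.244), 0.655 in window 2 (exact permutation p = 0.162) and -0.153 in window 4 (exact permutation p = 0.552). With equal list lengths the window 1 value was 1.65 points (exact permutation p = 0.154). At matched width the differences were 1.97, 3.02, 7.34 and 2.67 points in windows 1 to 4, with adjusted exact permutation p of 0.0847, 0.0502, 0.0729 and 0.0662.

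Loss was uneven along window 4. In bins of 500 kb with at least 10 reference sites, retention with ACBI-1 was lowest at chr19:55900000-56400000, at 78.6 ± 5.86% against 95.8 ± 4.95% with DMSO, and highest at chr19:58400000-58900000, at 97.9 ± 2.93% against 100% with DMSO (SD, n = 8 each). The bins were ranked after their values were seen, so no test is given. The lowest bin also holds 3 of the 4 regions that were broadest in DMSO, each with a peak in all 16 libraries.

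Region by region, loss was tested at every region whose peaks allowed a p of 0.05 or less. Only 11 window regions could be tested, and 1 was called lost at an adjusted p under 0.05. Of the others, 168 had a peak in every library and 175 had peaks in libraries whose placement allows no p that low. Of all 8082 regions tested, 27.9% were called lost and 0.111% gained. That share depends on the lists: 0 of 4385 regions were called lost with equal list lengths, 713 of 7188 with a common minimum width and 858 of 8375 with midpoints within 250 bp. It also fell to 0 when any 1 of 7 libraries was left out, and those are named with the other alternatives. In the rest of chromosome 19, 31 of 119 tested regions were lost. No window region was gained at an adjusted p under 0.05 by the exact permutation test, the only tool run. At an unadjusted p under 0.05 the number of window regions was 8 for loss (72.7% of the 11, beside 56.7% of all regions tested) and 0 for gain (beside 0.445%).

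The lost region was chr19:55964106-55964731 in window 4. It had a peak in all 8 DMSO libraries, of 490 and 406 bp in MOLT4 at 24 h, 192 and 293 bp in MOLT4 at 3 h, 575 and 441 bp in DND41 at 24 h and 429 and 210 bp in DND41 at 3 h. With ACBI-1 it had a peak in 2 of 8 libraries, 1 of MOLT4 at 24 h (464 bp) and 1 of MOLT4 at 3 h (334 bp), and in none of DND41. The exact permutation p was 0.0139 and the adjusted p 0.0497. The call was lost in 15 of the 16 fits that left out 1 library, and stayed only without replicate 1 of MOLT4 ACBI-1 3 h.

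The next regions by the number of libraries that lost the peak were not called. Region chr19:56152179-56152797 had a peak in 3 ACBI-1 and 8 DMSO libraries, chr19:58162575-58163198 in 0 ACBI-1 and 5 DMSO libraries, and chr19:56091615-56092473 in 3 ACBI-1 and 8 DMSO libraries (exact permutation p = 0.0278, 0.0278 and 0.0417). The region at 58162575 was mainly a DND41 site, with peaks of 609 and 475 bp in DMSO at 24 h and 182 and 340 bp in DMSO at 3 h. In window 1, chr19:21794826-21795429 and chr19:21810088-21810544 each had a peak in 1 ACBI-1 and 6 DMSO libraries (exact permutation p = 0.0648 and 0.0278). The last of the 8 were chr19:56577743-56578263, in 1 ACBI-1 and 6 DMSO libraries, and chr19:54296301-54296656, in 2 ACBI-1 and 7 DMSO libraries (exact permutation p = 0.0278 for each). All 8 had a median DMSO width of 200 to 426 bp, and 3 of them lie in the bin with the lowest retention. Regions and bin were both picked by loss in the same lists, so this overlap is not a separate result.

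In the other direction, 1 window region was at least 4 libraries higher with ACBI-1. This cut only served to name regions. The share of all regions that pass it is not given, so the count cannot be read as few or many. Region chr19:54672037-54672476 had a peak in 6 ACBI-1 libraries and 2 DMSO libraries, with a median width of 284 bp with ACBI-1 and 308 bp with DMSO (exact permutation p = 0.125). In each line it was in 3 ACBI-1 libraries and 1 DMSO library.

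Sites with a peak in all 8 DMSO libraries show how far the windows held. Of 193 such window regions, 168 (87.0%) had a peak in all 8 ACBI-1 libraries, 187 (96.9%) in at least 7 and 3 (1.55%) in fewer than 4, where 9.92% of all regions of this kind fell. At the windows' width distribution, the rest of chromosome 19 had 84.6% in all 8, 90.6% in at least 7 and 2.51% in fewer than 4. Other chromosomes had 67.7%, 76.4% and 6.16% in the same order. The 3 classes had median DMSO widths of 609, 585 and 603 bp. These regions were chosen on the DMSO libraries, so the share is a description with no test. By window, the number kept in all 8 was 36 of 38 in window 1, 25 of 27 in window 2, 6 of 9 in window 3 and 101 of 119 in window 4.

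The lines were compared over both treatments. Of 35 window regions that could be tested, 15 (42.9%) favoured MOLT4 and 13 (37.1%) favoured DND41 at an adjusted p under 0.05, beside 40.8% and 23.3% of all 11709 regions tested. A peak in all 8 libraries of 1 line and none of the other was found at 9 of the 354 window regions for MOLT4 and 6 for DND41. Beside these, it was found at 32 and 2 of the 1957 regions in the rest of chromosome 19, and at 1200 and 374 of the 129046 on other chromosomes. Among window regions with this pattern, the 4 broadest in each direction are named. In window 1, chr19:22234926-22235725 had a peak in all 8 MOLT4 and no DND41 library, with a width of 715 and 500 bp in MOLT4 ACBI-1 24 h, against 755 and 708 bp in MOLT4 DMSO 24 h. Regions chr19:36822327-36823097 in window 2 and chr19:54483136-54483948 and chr19:55574134-55574743 in window 4 had the same pattern, with median widths of 550, 549 and 504 bp. In the reverse pattern, chr19:56988365-56989701 in window 4 had a peak in all 8 DND41 and no MOLT4 library and was the broadest, at a median of 901 bp. The next were chr19:20607022-20607967 in window 1, and chr19:57018905-57019569 and chr19:57988533-57989340 in window 4, with medians of 603, 551 and 517 bp.

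Window sites that only 1 line opened in DMSO were mostly kept with ACBI-1. Of 13 window regions in all 4 MOLT4 and no DND41 DMSO library, 9 (69.2%) had a peak in all 4 MOLT4 ACBI-1 libraries, beside 44.2% of 77 in the rest of chromosome 19 and 28.6% of 4453 on other chromosomes. Of 11 such DND41 regions, 7 (63.6%) had one in all 4 DND41 ACBI-1 libraries, beside 14.3% of 14 and 18.4% of 2374. Median DMSO widths were 470 bp for the MOLT4 window sites and 498 bp for the DND41 ones, against 398 and 343 bp on other chromosomes, and the shares were not adjusted for width or tested.

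Peak widths were compared last. Median window peak width was 533 ± 71.8 bp with ACBI-1 and 561 ± 86.5 bp with DMSO (SD, n = 8 each), a difference of -4.80% (exact permutation p = 0.204, adjusted 0.359). At the 168 window regions with a peak in all 16 libraries, mean width differed by -7.88% (log2 -0.12, SE 0.063; exact permutation p = 0.0556, adjusted 0.233). The ratio of median width in the windows to that in the rest of chromosome 19 was lower with ACBI-1 by 5.89%, a log2 difference of -0.088 (SE 0.024; exact permutation p = 0.00154, adjusted 0.0324; 16 of 16 pairings). At regions with a peak in all 16 libraries that same ratio differed by -1.11% (exact permutation p = 0.144).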

How the data were processed

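Per the submitters' processing notes, the tools were Bowtie2, Picard, SAMtools and MACS2 and the build hg19; settings are not stated. The deposited file of each library is the authors' peak list with chromosome, start, end and name; these positions carry no score or other unit of signal. Each list belongs to 1 library. Peaks on chromosomes 1 to 22 and X were merged into regions where they shared 1 base, and coordinates are counted from 1. No peak was filtered.

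ACBI-1 and DMSO were compared by exact permutation, two-sided (Python 3.11.15, NumPy 2.4.6, SciPy 1.17.1), exchanging the 2 labels within line and time in 1296 ways. For retention the reference sites were chosen again under each exchange. Within 1 line or 1 time there are 36 exchanges. SE comes from the spread within the 8 groups. Adjusted p-values are Benjamini-Hochberg values over 34 tests of numbers, 21 of width, 56 of retention and 35 on the log-odds scale, or over all regions tested. Log odds used an offset of 0.5. For differences of the effect between lines or times, the line or time labels were exchanged within the other factor and treatment. A shift between lines or times that both treatments share widens the exchanged values, so a high p there does not show equal effects. The tests were tested on simulated presence calls.

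The named regions are the 4 broadest by median DMSO width among those found in all libraries, the 8 with the most libraries lost, up to 4 with the most gained (at least 4 libraries apart) and 4 in each direction with the largest difference between lines. Ties went to the broader region. The windows, lists and tests were chosen with earlier results of these data known. Tests by promoter or gene were planned and not run, as the gene table is on another build. Alternatives were each library left out, a replicate block, a common minimum width, equal list lengths, midpoint regions, shifted window ends, other reference sites, other width bins and log odds. Replicate numbers did not pair the libraries: the correlation of replicate differences between ACBI-1 and DMSO over 64390 regions was -0.0408 to 0.00375.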

Additional observations from a re-analysis of the deposited data

Results flagged for a closer look

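Both flagged results concern the lines, whose treatment effects differed at an unadjusted p under 0.05 and not after adjustment over 16 such tests. The window peak number differed between ACBI-1 and DMSO by -0.038 on the log2 scale in MOLT4 and by -0.19 in DND41, a difference of 0.15 (SE 0.050; exact permutation p = 0.0463, adjusted 0.370). The retention contrast of windows against other chromosomes, without width matching, was 19.2 points in MOLT4 and 13.5 points in DND41, a difference of 5.75 (SE 1.43; exact permutation p = 0.0278, adjusted 0.370). At matched width the difference between lines was 3.59 points (exact permutation p = 0.267). Whether library quality in DND41 at 3 h, where replicate 2 of DMSO had the lowest window retention of the DMSO libraries (89.2%), has a part in either was not tested.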

How the results depend on the processing

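Where a result below moved, the cause was not tested unless stated. Equal list lengths, which by construction drop the narrow peaks of the longer lists, turned window peak number to 0.035 (log2) and left shares of 0.021 and 0.250 points, none past the threshold. The log-odds scale left 0.136 and 0.311 for the windows against the rest of chromosome 19 and other chromosomes, and 0.119 for the rest of chromosome 19 at matched width, none past the threshold, and turned window 4 to -0.153. Windows 200 kb shorter at each end left 2.09 points for the rest of chromosome 19 at matched width (exact permutation p = 0.0764). A common minimum width of 170 bp turned the broad tertile against the rest of chromosome 19 to -0.223 points. The number of window regions lost was 0 with a common minimum width, equal list lengths or midpoints within 250 bp, and 2 with windows 200 kb longer. Without 1 library each, that number was 0 to 1, and the matched difference from the rest of chromosome 19 was 2.25 to 3.68 points. Over all regions the number lost was 2251. It was 0 with equal list lengths, 713 with the common minimum width and 858 with midpoints. It was 0 without replicate 1 of DND41 ACBI-1 3 h, DND41 DMSO 3 h, DND41 ACBI-1 24 h or MOLT4 ACBI-1 24 h, or replicate 2 of the last 2 groups or of MOLT4 DMSO 3 h, and 898 to 1110 without any other library.

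Whether replicate numbers pair the libraries is not known. With the replicate block the matched difference from the rest of chromosome 19 kept its 2.77 points (exact permutation p = 0.0391), that from other chromosomes 11.1 points (exact permutation p = 0.00391), window peak number -0.11 on the log2 scale (exact permutation p = 0.0234), and no call among those listed here changed side. The 2 alternatives chosen after seeing the data, sites shared by both lines and windows without a 1 Mb stretch of receptor genes, changed no main comparison. Read depth is unknown and limits every absence.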

Other observations

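Of the 63 window regions with a peak in 1 library only, 29 were in an ACBI-1 and 34 in a DMSO library, a 46.0% share for ACBI-1. The share was 51.8% of 575 in the rest of chromosome 19 and 46.9% of 66329 on other chromosomes. Window 4 held 47 of the 63, window 1 held 14, and windows 2 and 3 held 1 each. Of all 354 window regions, window 4 held 228 and window 1 held 73. The 13 window regions opened in DMSO by MOLT4 alone included 10 in window 4. The 11 opened by DND41 alone included 7 there and 3 in window 1. These counts were not tested against the number of regions in each window.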
